A study of Mus musculus with 89 samples.

Results

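The 7 genes described here handle sterols in the jejunal epithelium: *Npc1l1*, *Abcg5*, *Abcg8*, *Soat2*, *Abca1*, *Hmgcs1* and *Sqle*. They were chosen by name, and all 7 were found among the 21817 genes that the table of clumps and the table of single cells share. Clumps are small groups of epithelial cells that stayed attached during EDTA dissociation of the jejunum and were sorted by DNA content. They came from 5 male C57BL/6 mice aged 3 months on regular chow, as pairs of cells (4n) from mice 1 to 5 and as larger clumps (above 4n) from mice 1, 4 and 5. Single cells came from 4 C57BL/6 mice that are numbered apart. They were sorted as Epcam+ CD45- cells, with added Epcam+ CD24+ gates that enrich enteroendocrine and tuft cells, and 3 plates of mouse 2 are labelled 4 months and all others 3 months. The labels do not say whether those plates come from the same animal, and they are counted here under the 1 mouse whose number they carry. No group was treated or carried an engineered allele.

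Enterocytes take up dietary and biliary cholesterol through NPC1L1, a brush border protein, and return plant sterols and surplus cholesterol to the lumen through ABCG5 and ABCG8, which work as a heterodimer. Inside the cell SOAT2 (ACAT2) esterifies cholesterol for packing into chylomicrons, and ABCA1 passes cholesterol to apolipoprotein A-I at the basolateral side. Cells also make cholesterol from acetyl-CoA, where HMGCS1 catalyses an early step and SQLE (squalene epoxidase) the first oxygenation of squalene. Synthesis genes are known targets of SREBP-2, which is active when sterols in the endoplasmic reticulum are low, and *Abca1*, *Abcg5* and *Abcg8* are known targets of the sterol-sensing LXR receptors.

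On GRCm38 *Npc1l1* lies at chr11:6211013-6230143 and *Abca1* at chr4:53030787-53159895, both on the minus strand. *Hmgcs1* lies at chr13:119690379-119708260, *Sqle* at chr15:59315077-59331192 and *Soat2* at chr15:102150526-102163469, all on the plus strand. *Abcg5* (chr17:84658234-84683011, minus) and *Abcg8* (chr17:84676302-84700333, plus) are head to head and their annotated spans overlap. The overlap lies at the start of each gene, and the ends of the transcripts, where UMIs are captured, lie outside it. Of the 2 RefSeq start sites of *Abcg8*, 1 was 110 bases from that of *Abcg5* and the other lay inside the *Abcg5* span.

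RefSeq promoter windows (250 bases before to 50 after a start, GRCm38.p6) matched 5 of the 7 genes. 2 are shown, since they belong to the sets whose levels moved in opposite directions between the crypt and the villus: the window of *Hmgcs1* for synthesis, and that of *Abcg5* for efflux, of which 209 bases are also in an *Abcg8* window. Both run 5′ to 3′ on the gene's strand. Capitals mark CACCCCAC (the core of a sterol regulatory element), CCAAT (the box bound by NF-Y) and AGATAA (bound by factors of the GATA family) on either strand of the window. No marked match overlaps another.
Hmgcs1, chr13:119690101-119690400, plus strand: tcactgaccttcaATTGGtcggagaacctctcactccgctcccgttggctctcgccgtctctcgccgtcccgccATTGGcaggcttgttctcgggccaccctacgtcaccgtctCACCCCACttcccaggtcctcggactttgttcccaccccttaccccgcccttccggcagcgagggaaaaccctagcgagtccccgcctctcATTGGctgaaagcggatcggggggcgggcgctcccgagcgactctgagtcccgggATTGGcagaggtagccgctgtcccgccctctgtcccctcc
Abcg5, chr17:84682962-84683261, minus strand: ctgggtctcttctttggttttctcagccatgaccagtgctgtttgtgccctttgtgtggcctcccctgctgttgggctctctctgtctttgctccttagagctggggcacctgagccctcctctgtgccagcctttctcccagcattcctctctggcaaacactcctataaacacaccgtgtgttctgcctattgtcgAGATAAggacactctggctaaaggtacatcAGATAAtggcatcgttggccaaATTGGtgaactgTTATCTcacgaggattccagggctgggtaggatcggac

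The *Hmgcs1* window held 1 CACCCCAC and 4 copies of the CCAAT box. The *Abcg5* window held 1 CCAAT box and 3 AGATAA motifs, all 3 inside the stretch shared with *Abcg8*. The overlapping *Abcg8* window held 2 CCAAT boxes. Of the 32851 promoter windows 2.87% held at least 1 CACCCCAC, 37.4% at least 1 CCAAT box and 11.2% at least 1 AGATAA. The *Npc1l1* window held 1 CCAAT box, and the *Abca1* window none of the 3 motifs. These are matches of letters and not measured sites.

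Each UMI stands for 1 captured 3′ end, so levels are given as UMIs of the gene per 1000000 UMIs of all genes (CPM), over the summed clumps or cells of a mouse. Clumps were placed in zones by 70 enterocyte landmark genes, none of them a gene described here: 3251 crypt, 1821 mid-villus and 811 villus tip clumps. The sums held 346613 to 18868631 UMIs per mouse in the crypt, 197189 to 2764557 in mid-villus and 76801 to 757892 at the tip. Median UMIs per clump ran from 1387 to 6454 over mice in the crypt and from 988 to 1840.5 at the tip. *Alpi* (intestinal alkaline phosphatase) was at 78.9–205 CPM in crypt clumps and 1033–1535 at the tip, and *Mki67*, a proliferation marker, was at 28.9–177 in crypt clumps and at 0 at the tip in 3 of 5 mice. Other cell types were present too. Summed Paneth markers (10 genes) ran from 15.1 to 15956 CPM over mice in the crypt and from 14.7 to 532 at the tip, and summed goblet markers (39 genes) from 949 to 2061 and from 1166 to 7363. Immune markers (15 genes) summed to 1.59–299 CPM in the crypt and 0–52.1 at the tip, where *Ptprc* and *Cd3e* were at 0 in 5 of 5 mice. In these sums more cells of a type and more RNA per cell cannot be told apart.

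Of the 6 genes that passed the filter on low counts, 4 were higher in mid-villus than in crypt clumps (adjusted p under 0.05, edgeR quasi-likelihood test over 5 mice) and none was lower, where 20.2% of all 6984 genes tested were called higher and 22.3% lower. They were *Npc1l1*, *Soat2*, *Abcg5* and *Abcg8*, the uptake, esterification and luminal efflux genes. The synthesis gene *Hmgcs1* read lower in mid-villus clumps in 5 of 5 mice and *Sqle* in 4, with *Sqle* at 0 in mouse 5. Neither passed the test in the main edgeR fit, which had no block for the mouse. With the mouse as a block edgeR called both (adjusted p = 0.00305 and 0.0324). DESeq2 called *Hmgcs1* as the 5th gene (-0.98, adjusted p = 0.0396). From mid-villus to tip the main edgeR fit called none of the 6, against 14.7% of all genes. With the block it called *Npc1l1* (adjusted p = 0.0179). *Npc1l1* alone had an unadjusted p under 0.05 and was the 1 gene that DESeq2 called. Between tip and crypt the same 4 genes were higher and *Hmgcs1* was lower, where 24.5% of genes were called higher and 29.9% lower. *Abca1* had too few UMIs to pass the filter.

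*Npc1l1*, the cholesterol uptake gene, was at 153, 140, 216, 104 and 136 CPM in the crypt clumps of mice 1 to 5. In mid-villus clumps it was at 650, 510, 723, 652 and 543 CPM, and at the tip at 804, 735, 1070 and 976 CPM in mice 1 to 4 and 599 in mouse 5. All mid-villus and tip values lay above all crypt values, while the values of mid-villus and tip overlapped. The change from crypt to mid-villus was 2.22 ± 0.27 on the log2 scale (SE, n = 5 mice, adjusted p = 4.51e-06), or 4.66-fold. From crypt to tip it was 2.83 ± 0.27 (adjusted p = 1.55e-07). The step from mid-villus to tip was higher in 5 of 5 mice, by 0.61 ± 0.26, with an adjusted p of 0.115. With the mouse as a block in the fit it was 0.62 with an adjusted p of 0.0179, and DESeq2's Wald test gave 0.0107, so the call differed between models.

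*Abcg5* was at 73.5, 75.6, 103, 54.5 and 46.2 CPM in the crypt, at 290, 275, 276, 223 and 112 CPM in mid-villus, and at 276, 296, 309, 227 and 104 CPM at the tip. *Abcg8*, which encodes the other subunit of the transporter, was at 59.6, 56.7, 69.3, 26.8 and 37.5 CPM in the crypt, at 173, 167, 201, 127 and 96.4 CPM in mid-villus, and at 170, 95.5, 161, 161 and 39.1 CPM at the tip. Mid-villus values of each gene lay above all its crypt values. Mouse 5 was lowest for both genes in mid-villus and at the tip. *Abcg5* rose by 1.91 ± 0.28 on the log2 scale (adjusted p = 2.50e-05) and *Abcg8* by 1.80 ± 0.29 (adjusted p = 6.29e-05) from crypt to mid-villus. The step to the tip was 0.28 ± 0.28 for *Abcg5* and -0.08 ± 0.30 for *Abcg8*, with adjusted p of 0.54 and 0.90. Tip against crypt, *Abcg5* was 2.19 ± 0.29 and *Abcg8* 1.72 ± 0.30 higher.

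Of the UMIs of the transporter pair, *Abcg8* made up a median of 42.9% in the crypt (32.9% to 44.8% over 5 mice), 37.8% in mid-villus (36.3% to 46.3%) and 34.3% at the tip (24.4% to 41.5%). The ranges of the zones overlapped. The share was not tested between zones.

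*Soat2*, the cholesterol esterification gene, was at 44.9, 54.2, 59.2, 33.5 and 34.6 CPM in the crypt and at 219, 186, 221, 163 and 117 CPM in mid-villus. At the tip the mice spread more widely, at 340, 203, 195, 152 and 39.1 CPM in mice 1 to 5. The mid-villus values lay above all crypt values, and the tip value of mouse 5 fell among them. The change from crypt to mid-villus was 2.19 ± 0.33 (adjusted p = 2.88e-05), from crypt to tip 2.46 ± 0.33 (adjusted p = 5.38e-06), and from mid-villus to tip 0.27 ± 0.32 (adjusted p = 0.62).

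*Abca1*, the basolateral efflux gene, was rare. It was at 6.75, 3.78, 7.97, 0.58 and 0 CPM in the crypt, at 21.4, 27, 37.3, 9.05 and 0 CPM in mid-villus, and at 9.19, 4.90, 34.3, 0 and 0 CPM at the tip. It was higher in mid-villus than in the crypt in the 4 mice that had any UMI, and lower at the tip than in mid-villus in mice 1 to 3. The 0 of mouse 5 in mid-villus allows up to 15.2 CPM, the level that 3 UMIs would give, and that of mouse 4 at the tip up to 28.4 CPM, above its mid-villus level. Fitted with no filter on low counts, the difference between mid-villus and crypt was 2.68 ± 0.61 (adjusted p = 0.00172) that between tip and mid-villus -0.39 ± 0.65 (adjusted p = 0.91) and that between tip and crypt 2.29 ± 0.71 (adjusted p = 0.0196).

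*Hmgcs1*, of early cholesterol synthesis, was at 137, 111, 192, 78.1 and 51.9 CPM in the crypt, at 78, 48.4, 122, 48.9 and 15.2 CPM in mid-villus, and at 41.3, 9.8, 72.6, 47.4 and 26 CPM at the tip. *Sqle* was at 37.4, 25.2, 55.4, 25.9 and 14.4 CPM in the crypt, at 26.9, 13.5, 32.9, 10.9 and 0 CPM in mid-villus, and at 4.59, 0, 19.8, 9.48 and 13 CPM at the tip. Mouse 3 was highest in all 3 zones for both genes, and the groups overlapped although each mouse had its highest level in the crypt. The 0 of mouse 5 for *Sqle* in mid-villus allows up to 15.2 CPM, above its crypt level, so that mouse cannot be placed. At the tip *Sqle* rests on 1 UMI in each of mice 1, 4 and 5, and *Hmgcs1* on 2 UMIs in mouse 5. There 3 UMIs of *Sqle* would give 28.4 CPM in mouse 4 and 39.1 CPM in mouse 5, above their crypt levels.

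The change of *Hmgcs1* from crypt to mid-villus was -0.63 ± 0.37 (adjusted p = 0.18), and that of *Sqle* -0.56 ± 0.43 (adjusted p = 0.31). From mid-villus to tip *Hmgcs1* was at -0.46 ± 0.43 and *Sqle* at -0.72 ± 0.60. With the mouse as a block the changes from crypt to mid-villus were -0.68 (adjusted p = 0.00305) and -0.64 (adjusted p = 0.0324). From crypt to tip *Hmgcs1* fell by 1.10 ± 0.43 on the log2 scale (adjusted p = 0.0346), and *Sqle* differed by -1.28 ± 0.58 (adjusted p = 0.066). With the block *Sqle* was -1.48 (adjusted p = 0.00198), and it passed the test in 8 of 14 alternatives in all. The fall of *Hmgcs1* between crypt and tip lost its call in 8 of 16 alternatives, with the same sign in each. They were leaving out mouse 1 (adjusted p = 0.109), mouse 2 (0.11) or mouse 5 (0.0522), pairs alone (0.0531), larger clumps alone (0.0868), clumps of over 1000 UMIs (0.0612), no filter on low counts (0.0673) and z scored zones (-0.54, adjusted p = 0.27). Without the clumps that held 10 or more UMIs of a secretory or immune marker list, *Hmgcs1* fell by 1.04 from crypt to mid-villus (adjusted p = 0.0239).

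Crypt clumps were deeper and more often large, which moves with these zones. With each clump thinned to 500 UMIs, the log2 change between mid-villus and crypt was 2.51 for *Npc1l1*, 1.85 for *Abcg5*, 1.84 for *Abcg8* and 2.24 for *Soat2*, all called. Among pairs alone they were 1.67, 1.31, 1.34 and 1.73, where *Abcg5* had an adjusted p of 0.0741, and among larger clumps alone (mice 1, 4 and 5) 2.16, 1.71, 1.56 and 1.97, all called. The plates of each size were sequenced in several batches that the labels do not assign.

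Other enzymes of cholesterol synthesis were mostly lower or not called. Of 14 tested from a list of 20, 6 fell and 1 rose from crypt to mid-villus, with a median log2 change of -0.51 beside 0.06 over all 6984 genes, of which 22.3% were called lower and 20.2% higher. *Lbr*, a sterol reductase that is also a nuclear envelope protein, fell by 2.73 ± 0.41 (4.12 against 32.7 CPM), and *Lss* (lanosterol synthase) by 1.76 ± 0.43. *Sc5d* (sterol C5 desaturase) rose by 1.11 ± 0.28. Between tip and crypt 7 fell and 1 rose, where 29.9% of all genes were called lower and 24.5% higher. *Lss* was at 0 CPM in all 5 mice at the tip and at a mean of 16.1 CPM in the crypt. Its zeros at the tip allow up to 28.4 and 39.1 CPM (3 UMIs) in mice 4 and 5, above the crypt mean. From mid-villus to tip 2 of the 14 were called, near the 14.7% of all genes called in either direction. Both fell, *Lss* and *Dhcr7* (-1.98 ± 0.58), the last step of one branch of the pathway. The mid-villus mean of *Lss*, 4.02 CPM, was below what its tip zeros allow in mice 1, 2, 4 and 5.

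**Figure D1:**
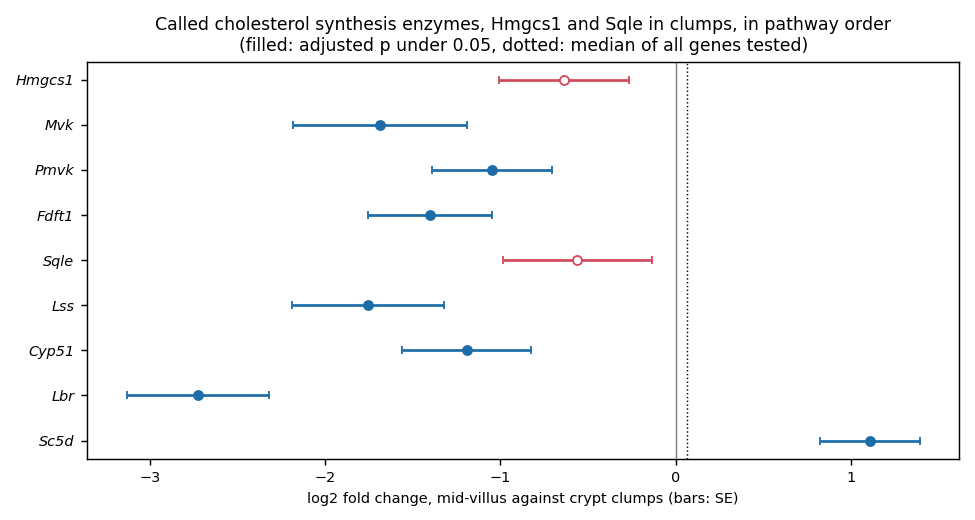
Log2 change between mid-villus and crypt clumps for *Hmgcs1*, *Sqle* (red) and the 7 called of the 14 other synthesis enzymes tested (blue), in pathway order, with SE bars, filled where called. 6 of the 14 fell, *Sc5d* rose by 1.11, and *Hmgcs1* (-0.63) and *Sqle* (-0.56) are unfilled.

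Of the regulators of the SREBP pathway, 3 of 7 tested fell from crypt to mid-villus and none rose (median -0.87), where 22.3% of all genes were called lower. *Srebf2*, which encodes SREBP-2, fell by 1.43 ± 0.37 (8.85 against 26.3 CPM). Between tip and crypt 2 of the 7 were called lower and 1 higher, where 29.9% and 24.5% of all genes were. *Srebf2* fell by 1.56 ± 0.50 on the log2 scale. *Insig2*, an endoplasmic reticulum anchor of the SREBP complex, was called higher by 1.58 ± 0.44, though its level was higher in 3 of 5 mice (36.6 ± 28.4 against 20.0 ± 6.30 CPM, SD). From mid-villus to tip 1 of the 7 was called, near the 14.7% of all genes, *Insig1*, of the same function, at 1.85 ± 0.46.

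Of 4 LXR and efflux genes tested, *Lpcat3* (a phospholipid-remodelling enzyme and LXR target) and *Nr1h2* (LXRβ) rose from crypt to mid-villus, by 1.05 ± 0.26 and 0.75 ± 0.26, and none fell (median 0.67), where 20.2% of all genes were called higher. None of the 4 was called between tip and mid-villus. Of 9 genes of intracellular sterol transport and ester turnover, 5 rose from crypt to mid-villus and none fell (median 1.30), against the same 20.2%. *Lipa*, the lysosomal acid lipase, rose by 3.42 ± 0.35, and *Gramd1b*, which carries cholesterol from the plasma membrane to the endoplasmic reticulum, by 2.99 ± 0.41. In single cells *Lipa* was at -0.27 ± 0.38 for the same step (adjusted p = 0.58).

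Between mid-villus and tip 2 of the 9 transport genes rose and 2 fell, where 14.7% of all genes were called in either direction. *Npc1*, which exports cholesterol from lysosomes, rose by 3.14 ± 0.46 from mid-villus to tip (82.1 against 10.3 CPM, higher in 5 of 5 mice), and *Gramd1b* by 2.22 ± 0.37 (184 against 46.6 CPM). *Stard4*, a cytosolic sterol carrier, fell by 1.82 ± 0.30, and *Npc2*, the soluble partner of NPC1, fell by 1.42 ± 0.39. All 9 genes of this list differed between tip and crypt, 7 higher and 2 lower, where 24.5% of all genes were called higher and 29.9% lower.

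Under DESeq2's size factors the median change of all genes between mid-villus and crypt went from 0.06 to -0.26, and that between tip and crypt from -0.07 to -0.40. The share of called genes that were higher fell from 47.5% to 29.5% and from 45.1% to 33.5%. The 4 genes that rose kept their calls, and *Hmgcs1* passed between mid-villus and crypt (-0.95, adjusted p = 0.0379).

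The same zones were then read in single cells. The 3039 cells with no secretory or immune class fell into 803 crypt, 813 mid-villus and 1423 tip cells of 4 mice, with 66006 to 2127511 UMIs per mouse and zone. Of the 6 genes tested, 4 were higher and 2 lower in mid-villus than in crypt cells, where 22.9% of 5261 genes were called higher and 26.6% lower. *Npc1l1*, *Abcg5*, *Abcg8* and *Soat2* rose here too, and *Hmgcs1* and *Sqle* fell. None of the 6 was called by edgeR or DESeq2 between tip and mid-villus, against 26.4% of all genes in edgeR, and 0 of the 6 had an unadjusted p under 0.05.

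**Figure D2:**
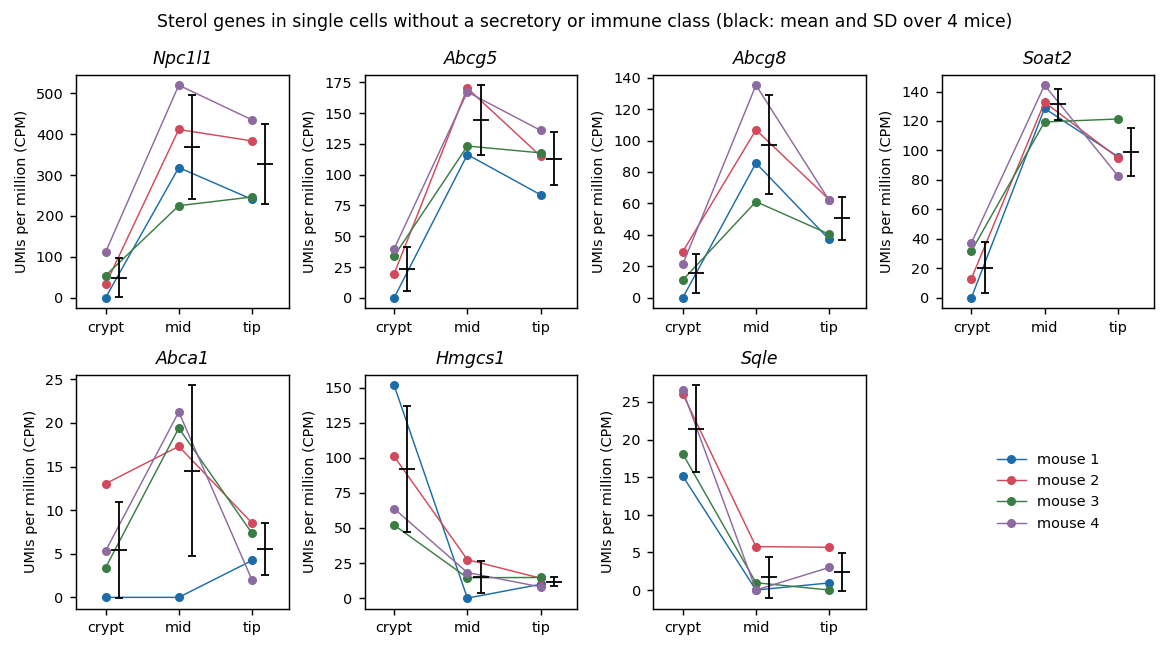
Levels (CPM) by zone in single cells without a secretory or immune class, for each of 4 mice (coloured lines), with the mean and SD in black. *Sqle* reads 15.2–26.6 CPM in crypt cells and 0 to 5.77 in mid-villus cells, where the 0 of mouse 1 allows up to 18.4. *Abcg8* is lower at the tip than in mid-villus in 4 of 4 mice on this scale.

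*Npc1l1* was at 0, 32.6, 54.3 and 112 CPM in the crypt cells of mice 1 to 4, at 318, 411, 225 and 520 CPM in mid-villus cells and at 241, 383, 246 and 435 CPM at the tip. *Abcg5* was at 0, 19.5, 33.9 and 39.8 CPM in the crypt and at 116, 170, 123 and 167 CPM in mid-villus. *Soat2* was at 0, 13, 31.7 and 37.2 CPM in the crypt and at 129, 133, 119 and 144 CPM in mid-villus. Mid-villus and crypt values did not overlap for any of the 6 genes tested. Mouse 1 had only 42 crypt cells, where a 0 allows up to 45.5 CPM. The log2 changes between mid-villus and crypt were 3.02 ± 0.48 for *Npc1l1* (adjusted p = 2.09e-05), 2.63 ± 0.39 for *Abcg5* (9.04e-06), 2.79 ± 0.39 for *Abcg8* (5.74e-06) and 2.64 ± 0.42 for *Soat2* (1.90e-05).

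*Hmgcs1* was at 152, 101, 52 and 63.7 CPM in crypt cells, at 0, 27.4, 14.6 and 18.2 CPM in mid-villus cells and at 9.87, 14.2, 14.7 and 7.995 CPM at the tip. *Sqle* was at 15.2, 26.1, 18.1 and 26.6 CPM in crypt cells, and at 0, 5.77, 0.97 and 0 CPM in mid-villus cells. In mouse 1 the crypt level of *Sqle* is 1 UMI, and its 0 in mid-villus cells allows up to 18.4 CPM. *Hmgcs1* fell by 1.74 ± 0.40 on the log2 scale (adjusted p = 0.000857) and *Sqle* by 3.02 ± 0.69 (adjusted p = 0.000896), the latter on 35 UMIs in crypt cells and 5 in mid-villus cells.

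Crypt cells of this set held immune marker UMIs, at 898 to 1616 CPM over mice against 18.4 to 152 CPM in mid-villus cells, and 7 of 8 immune markers tested were lower in mid-villus. Summed tuft markers ran from 391 to 1757 CPM in crypt cells and from 49.0 to 104 in mid-villus cells, enteroendocrine markers from 127 to 866 and from 12.2 to 36.7, and goblet markers from 355 to 561 and from 59.2 to 250.9. *Hmgcs1* was at 81.1 to 164 CPM in immune-like cells, and at means of 268 in goblet-like, 231 in tuft-like and 81.2 in enteroendocrine-like cells. With cells left out that had 3 or more UMIs of any secretory or immune list, *Hmgcs1* still fell by 1.54 (called), *Npc1l1*, *Abcg5*, *Abcg8* and *Soat2* rose by 2.28, 1.79, 1.95 and 2.09 (all called), and *Sqle* was too rare to be tested. That setting was chosen after the data had been seen.

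Above mid-villus the scale mattered. In CPM *Abcg5* and *Abcg8* were lower in tip than in mid-villus cells in 4 of 4 mice, at a mean of 113 against 144 and of 50.5 against 97.2. *Npc1l1* (326 against 369 CPM) and *Soat2* (98.8 against 131 CPM) read less in tip than in mid-villus cells of 3 mice and more in those of 1, whereas *Npc1l1* was higher at the tip in 5 of 5 mice in clumps. *Soat2* read 95.9, 95.1, 121 and 82.9 CPM at the tip, and *Sqle* 0.94, 5.68, 0 and 3.00 CPM. On the TMM scale of the fit, which sets aside the genes that take large shares of UMIs, the change of *Npc1l1* was 0.54 ± 0.43, that of *Abcg5* 0.35 ± 0.33, that of *Soat2* 0.36 ± 0.35 and that of *Abcg8* -0.21 ± 0.32. So 3 of these 4 genes had opposite signs on the 2 scales, and none was called. *Hmgcs1* was at 0.14 ± 0.43 and *Sqle* at 0.83 ± 0.86. *Abca1* was at 0, 17.3, 19.4 and 21.3 CPM in mid-villus cells and 4.23, 8.52, 7.35 and 1.999 CPM at the tip. Its tip value was the smaller of the pair in mice 2 to 4. It did not pass the filter. Fitted with no filter on low counts, its change was 2.06 ± 0.63 from crypt to mid-villus (adjusted p = 0.00705) and -1.02 ± 0.54 from mid-villus to tip (adjusted p = 0.343).

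**Figure D3:**
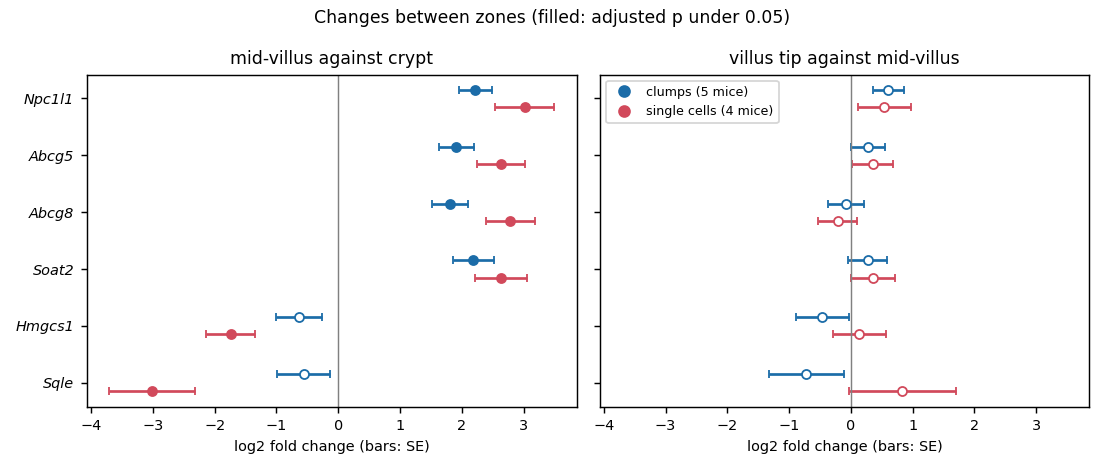
Log2 fold changes with SE bars between mid-villus and crypt (left) and between villus tip and mid-villus (right), in clumps (blue) and single cells (red), filled where called. *Npc1l1*, *Abcg5*, *Abcg8* and *Soat2* lie between 1.80 and 3.02 on the left in clumps and in cells, and no point on the right is filled.

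Fewer pathway genes could be tested in single cells. Of 7 synthesis enzymes tested 2 fell from crypt to mid-villus, where 26.6% of all genes were called lower, *Lbr* (-2.86 ± 0.55) and *Cyp51* (lanosterol demethylase, -1.92 ± 0.50). Of 6 transport genes *Gramd1b* (2.35 ± 0.41) and *Stard4* (0.82 ± 0.34) rose from crypt to mid-villus and *Npc2* fell by 1.53 ± 0.32, where 22.9% of all genes were called higher and 26.6% lower. From mid-villus to tip *Npc1* (2.59 ± 0.50) and *Gramd1b* (2.08 ± 0.30) rose and *Stard4* fell by 1.04 ± 0.33, out of the same 6, where 26.4% of all genes were called in either direction.

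Among single cells the genes were then compared between classes made from summed marker UMIs. The classes held 2219 enterocyte-like, 207 goblet-like, 179 enteroendocrine-like, 171 tuft-like and 1415 immune-like cells, and 132 enterocyte-like cells had marker sums of 8 to 12 UMIs, near the limit of 10. *Muc2* (3779–12258 CPM), *Chga* (610–4552 CPM) and *Dclk1* (658–1317 CPM) marked the goblet-like, enteroendocrine-like and tuft-like cells of all 4 mice. Mouse 2, the one with plates of both ages, gave 150 of the enteroendocrine-like and 137 of the tuft-like cells, and some sums of other mice rest on 5 to 20 cells.

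Of the 5 genes that passed the filter on low counts, *Npc1l1*, *Soat2* and *Abcg5* were higher in enterocyte-like cells than in each secretory class. All 3 were called against goblet-like cells (18.3% of 1882 genes called higher), tuft-like cells (22.2%) and enteroendocrine-like cells (27.8%). *Hmgcs1* and *Sqle* were lower in enterocyte-like cells than in goblet-like (9.99% of genes called lower) and tuft-like cells (11.7%). Against enteroendocrine-like cells (14.8%) *Sqle* was lower and *Hmgcs1* was not called.

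**Figure D4:**
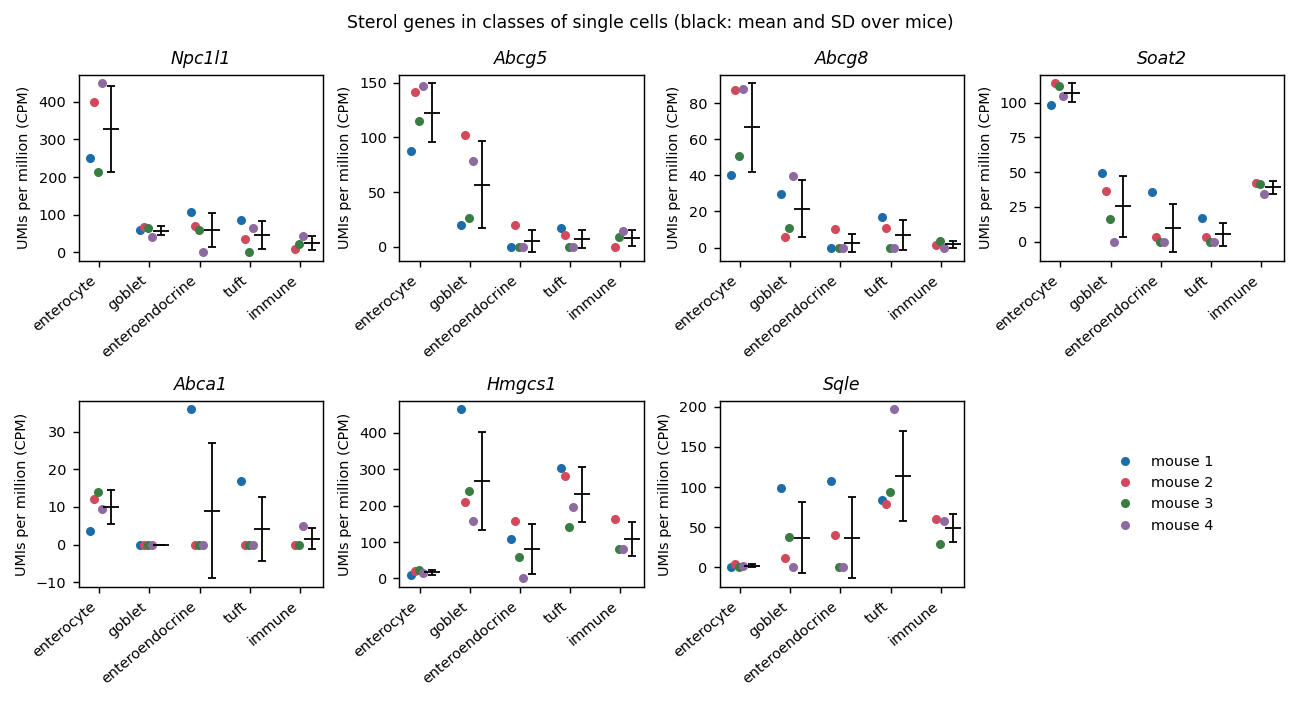
Levels (CPM) in 5 classes of single cells, 1 point per mouse, with the mean and SD in black. Enterocyte-like cells hold the highest *Npc1l1*, *Abcg5*, *Abcg8* and *Soat2* means (328, 123, 66.5 and 107 CPM) and the lowest *Hmgcs1* and *Sqle* means (16.5 and 2.13 CPM).

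*Npc1l1* was at 328 ± 114 CPM in enterocyte-like (SD, n = 4 mice), 57.2 ± 12.3 in goblet-like, 59.3 ± 44.7 in enteroendocrine-like and 46.5 ± 36.8 in tuft-like cells. Immune-like cells, which are not known for sterol absorption, read 24.3 ± 18.0 CPM (n = 3 mice), the level beside which the low values are read. The values of the secretory classes overlapped with each other, and every enterocyte-like value lay above them. The log2 difference was 3.19 ± 0.54 against goblet-like, 4.18 ± 0.62 against tuft-like and 3.71 ± 0.60 against enteroendocrine-like cells (adjusted p at most 3.38e-05).

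*Abcg5* was at 123 ± 27.1 CPM in enterocyte-like, 56.9 ± 40.1 in goblet-like, 5.05 ± 10.1 in enteroendocrine-like, 6.92 ± 8.37 in tuft-like and 7.84 ± 7.32 in immune-like cells. Goblet-like cells overlapped enterocyte-like cells. Enteroendocrine-like cells had *Abcg5* UMIs in mouse 2 alone (20.2 CPM) and tuft-like cells in mice 1 and 2 (16.9 and 10.8 CPM), while the zeros of the other mice allow up to 88.3 CPM or more. The log2 difference from goblet-like cells was 1.89 ± 0.55 (adjusted p = 0.00964; 0.0524 without mouse 3), from tuft-like cells 4.84 ± 0.79 and from enteroendocrine-like cells 4.46 ± 0.75. The last 2 rest on 4 and 6 UMIs, and the ratios of the pooled levels were 11.2 (exact 95% counting interval 4.35 to 41.1) and 7.38 (3.37 to 20.2), the latter interval lying below the 22.1-fold of the fit. *Abcg8* was at 66.5 ± 24.6, 21.4 ± 15.7, 2.52 ± 5.05, 6.92 ± 8.37 and 1.72 ± 1.81 CPM in the same 5 classes and did not pass the filter. Fitted with no filter on low counts, it was higher in enterocyte-like cells by 2.96 ± 0.75 against goblet-like (adjusted p = 0.00259), 4.11 ± 0.86 against tuft-like (adjusted p = 5.16e-05) and 4.56 ± 0.91 against enteroendocrine-like cells (adjusted p = 1.93e-05), the last 2 on 4 and 3 UMIs. The ratio of the pooled levels was 7.85 (exact 95% counting interval 2.67 to 38.2) against enteroendocrine-like cells. Goblet-like cells gave 7 *Abcg8* and 26 *Abcg5* UMIs, against 460 and 864 in enterocyte-like cells.

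*Soat2* was at 107 ± 6.94 CPM in enterocyte-like cells, the narrowest spread of the 7 genes relative to the mean, with 98.6, 114, 112 and 105 CPM in the mice. It was at 25.4 ± 21.8 in goblet-like, 9.82 ± 17.5 in enteroendocrine-like and 5.12 ± 8.01 in tuft-like cells. Every enterocyte-like value read above all of these. The zeros of mouse 4, though, allow up to 118 CPM in goblet-like, 197 in tuft-like and 291 in enteroendocrine-like cells. In tuft-like cells the 0 of mouse 3 allows up to 141 CPM. On the log2 scale of the fit the differences were 2.61 ± 0.60 (goblet-like), 5.53 ± 0.91 (enteroendocrine-like) and 5.56 ± 0.89 (tuft-like). The last 2 fits rest on 2 *Soat2* UMIs in each class, and the ratio of the pooled levels was 19.6 (exact 95% counting interval 5.42 to 162) against enteroendocrine-like and 19.8 (5.47 to 164) against tuft-like cells. Immune-like cells stood apart for this gene, at 42, 41.5 and 33.9 CPM in mice 2 to 4. They held 57 *Soat2* UMIs but 26 of *Npc1l1* and 8 of *Abcg5*, whereas enterocyte-like cells held 767, 2301 and 864, so the genes were not in 1 ratio. *Soat1*, the ester synthase of many other cells, had 16, 14 and 3 UMIs in immune-like cells of mice 2 to 4.

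*Abca1* had 68 UMIs in enterocyte-like cells (9.85 ± 4.51 CPM) and 0 in goblet-like cells, which allows up to 6.25 CPM over the class. The pooled level of enterocyte-like cells was 9.43 CPM, and the exact 95% counting interval of the ratio began at 1.19. The enteroendocrine-like, tuft-like and immune-like classes had 1 *Abca1* UMI each, and the ratio of the pooled levels was 3.52 (0.61 to 141) against tuft-like and 3.48 (0.60 to 140) against enteroendocrine-like cells.

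*Hmgcs1* was at 16.5 ± 5.69 CPM in enterocyte-like cells, 268 ± 135 in goblet-like, 231 ± 75.4 in tuft-like, 81.2 ± 67.6 in enteroendocrine-like and 109 ± 47.3 in immune-like cells. Enterocyte-like cells read 9.63, 20, 22.1 and 14.1 CPM in mice 1 to 4, and goblet-like cells 464, 211, 240 and 157 CPM, with no overlap. Tuft-like cells read 304, 282, 141 and 197 CPM and did not overlap with enterocyte-like cells either. The log2 differences were -3.43 ± 0.58 against goblet-like (adjusted p = 2.97e-05), -2.54 ± 0.58 against tuft-like (adjusted p = 0.000877) and -1.33 ± 0.61 against enteroendocrine-like cells (adjusted p = 0.0766). The last ran from -1.89 (classes made from at least 20 marker UMIs, adjusted p = 0.0155) to -0.16 (without mouse 2, adjusted p = 0.90) over 11 alternatives, of which 2 called it.

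*Sqle* was lowest in enterocyte-like cells, at 2.13 ± 1.56 CPM from 14 UMIs, and highest in tuft-like cells, at 84.3, 79.4, 94.1 and 197 CPM. Goblet-like cells read 98.8, 12, 37.4 and 0 CPM, enteroendocrine-like cells 108, 40.4, 0 and 0 CPM, and immune-like cells 49.2 ± 17.7 CPM. Tuft-like values lay above all enterocyte-like values, while those of goblet-like and enteroendocrine-like cells overlapped them. The log2 differences of enterocyte-like cells were -4.09 ± 0.77 from tuft-like (adjusted p = 9.75e-05), -3.57 ± 0.78 from goblet-like (0.000732) and -2.85 ± 0.85 from enteroendocrine-like cells (0.00878).

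Other enzymes of the pathway were mostly lower in enterocyte-like cells or not called. *Fdft1* (squalene synthase) was at 2.39 CPM in enterocyte-like, 69.9 in goblet-like and 112 in tuft-like cells, and *Cyp51* at 6.28, 76.2 and 144 CPM. Of 5 synthesis enzymes tested, 3 were lower and none was higher in enterocyte-like than in goblet-like cells, likewise against tuft-like cells, where 9.99% and 11.7% of all genes were called lower. *Srebf2* was at 5.41 CPM in enterocyte-like and 167 in tuft-like cells (-3.23 ± 0.58). *Soat1* was lower in enterocyte-like than in goblet-like cells, by 2.96 ± 0.94 on the log2 scale, opposite in sign to *Soat2*.

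Tuft-like cells were sorted partly without a CD45 gate and held *Ptprc* at 235 to 337 CPM. Between classes, changes on the TMM scale of the fit differed in size from those in CPM. *Npc1l1* was 18.1-fold higher in enterocyte-like than in tuft-like cells in the fit and 7.06-fold in mean CPM, and *Hmgcs1* 10.8-fold lower than in goblet-like cells in the fit, at means of 16.5 against 268 CPM. Depth differed between classes, with median UMIs per cell over mice of 2539 to 3911 in enterocyte-like and 730 to 1000 in immune-like cells. Without mouse 2 only 600 genes and 1 of the 7 (*Hmgcs1*) could be tested, and *Hmgcs1* against tuft-like cells then had an adjusted p of 0.0785. Under DESeq2's size factors the median change of all genes went from 0.09 to 0.37 against tuft-like and from 0.21 to 0.53 against enteroendocrine-like cells, and all 14 calls kept their sign. Paneth-like cells (22 in mouse 2, 53136 UMIs) held 0 UMIs of *Npc1l1*, *Soat2*, *Hmgcs1* and *Sqle*, which allows up to 56.5 CPM.

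Over the 15 sums of mouse and zone in clumps, *Soat2* and *Abcg5* had the highest correlation between any 2 of the 7 genes (Pearson's r of log2(CPM + 1) = 0.95), followed by *Soat2* and *Abcg8* (0.94), *Hmgcs1* and *Sqle* (0.93) and *Abcg5* and *Abcg8* (0.91). Uptake and synthesis genes were negatively related, as *Npc1l1* and *Hmgcs1* (-0.45). The points share mice and zones, so these values are descriptions. Among 4864 genes with a mean of at least 20 CPM, the genes most like *Npc1l1* were *Bst1* (0.98), *Slc6a19* (0.98, a neutral amino acid transporter) and *Cdhr2* (0.98, a brush border cadherin). *Soat2* was most like *Xdh* (0.97, xanthine dehydrogenase), *Dgat1* (0.96, a triglyceride synthesis enzyme) and *St3gal4* (0.96). *Abcg5* was most like *Prdx5* (0.98), *Xdh* (0.97) and *Ezr* (0.97, the microvillus protein ezrin), and *Abcg8* most like *Irak2* (0.98), *Lap3* (0.97) and *Prr15* (0.96). *Hmgcs1* was most like *Serinc3* (0.95), *Ube2r2* (0.94) and *Cpne3* (0.94). *Sqle* was most like the pseudogenes *Rpl21-ps3* (0.93) and *Gm10029* (0.90), whose reads can come from near-identical copies, and *Cpne3* (0.90). *Abca1* was most like *Csnk1g3* (0.94), *Sucla2* (0.93) and *Lasp1* (0.91), on few UMIs.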

How the data were processed

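MARS-seq libraries (3′ ends) of clumps and single cells were sorted into multiwell plates. The authors converted reads with bcl2fastq 2.15.0.4, aligned them to GRCm38 by STAR within zUMIs with a strand setting, and deposited whole-number UMI counts per gene and well, before background subtraction and filters, in 2 tables (17162 clump wells, 16850 cell wells). Both hold many wells of few UMIs. The tables share no well name.

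From these counts, a clump entered if it had 200 or more genes, over 500 UMIs and a mitochondrial share no higher than 30% (6004 of 15626 wells of mice 1 to 5), and the 2% with the lowest landmark share were dropped. Landmark UMIs were divided by the clump's landmark total and each gene by its maximum, and a clump took the zone whose list of landmarks correlated best (5883 clumps). For single cells the limits were those of the study: 200 and 7000 UMIs, 150 and 1500 genes, and a mitochondrial share of 40% (5199 cells, 810 to 1793 per mouse). Classes needed 10 UMIs of a marker list, and 101 cells with 2 or more secretory or immune lists were left out as doublets. Mouse 6 of the clumps, labelled above 2n, entered no comparison.

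UMIs were summed per mouse and zone or class (at least 5 cells) and tested in edgeR 4.0.16 (R 4.3.3) with TMM, filterByExpr, quasi-likelihood F tests and Benjamini-Hochberg adjustment over all genes tested. Landmarks or class markers were left out of gene counts. On simulated counts the procedure recovered 100% of 4-fold and 43.7% of 2-fold changes for clumps (mid-villus against crypt, 6710 genes), 91.3% and 11.3% for single cells (mid-villus against crypt, 5762 genes) and 93.5% and 13.0% for enterocyte-like against goblet-like cells (1683 genes). Zones or classes of 1 mouse come from the same animal, and their deviations from group means correlated (r of 0.178 to 0.566 in all 15 pairs of clump sums, over 0.1 in 8 of 12 pairs of cell zones and 21 of 24 pairs of classes). The fit without a block was the main one, and the fit with the mouse as a block is given where it changes a call. Levels and limits of 0 (3 UMIs) cover counting error only. All 7 genes are named in each comparison, and of each pathway list up to 2 genes with the largest called change in each direction. The *Soat1* UMIs of immune-like cells were added after their values were seen. Some genes of these lists are not reported here. The 7 genes and all lists were chosen with earlier results of these data known.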

Additional observations from a re-analysis of the deposited data

Results flagged for a closer look

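Among 69 groups of 4 or 5 mice examined for a mouse that stood apart by Dixon's criterion, 8 were flagged. In clumps it was *Abca1* at the tip of mouse 3 (34.3 CPM, where the other 4 mice read 0 to 9.19). In single cells it was *Sqle* in the mid-villus cells of mouse 2 (5.77 CPM). In enteroendocrine-like cells it was *Abca1* (35.9 CPM) and *Soat2* (35.9 CPM) of mouse 1, each from 1 UMI, and *Abcg5* (20.2 CPM) and *Abcg8* (10.1 CPM) of mouse 2, whose other mice were at 0. In tuft-like cells it was *Abca1* of mouse 1 (16.9 CPM) and *Sqle* of mouse 4 (197 CPM, from 6 cells). Chance flags about 1 in 20 groups of continuous values. That rate does not hold where all other mice are at 0, since any UMI is then flagged. Such were *Abca1*, *Abcg5* and *Abcg8* in enteroendocrine-like cells and *Abca1* in tuft-like cells.

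Mouse 6, whose clumps are labelled above 2n and enter no comparison, held UMIs of all 7 genes in its 272 clumps with a zone: 296 of *Npc1l1*, 119 of *Abcg5*, 101 of *Abcg8*, 127 of *Soat2*, 15 of *Abca1*, 79 of *Hmgcs1* and 29 of *Sqle*. *Npc1l1* was at 130 CPM in its crypt, 442 in its mid-villus and 262 in its tip clumps, and *Hmgcs1* at 78.5, 49.1 and 32 CPM. *Sqle*, lower in mid-villus than in crypt clumps in mice 1 to 4, was at 23.8, 30.02 and 6.40 CPM in these zones. *Soat2* (65.9, 194 and 57.6 CPM), *Abcg8* (54.7, 142 and 64 CPM) and *Npc1l1* were highest in mid-villus in this mouse, which has no replicate.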

How the results depend on the processing

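Alternatives were compared for the genes that passed the filter in the main fit, thus not *Abca1*, and not *Abcg8* between classes. Of their log2 changes under the alternatives, 527 kept direction and side of the threshold, 17 passed it anew, 11 lost it and 14 changed sign. All 14 were between villus tip and mid-villus and none of them was called. In clumps these were *Abcg8* with the background of the 4 emptiest wells subtracted (0.029), in larger clumps alone (0.10), without secretory or immune markers (0.013) and without mouse 2 or 5 (range over mice left out -0.17 to 0.12), *Abcg5* (-0.014) and *Soat2* (-0.25) in larger clumps alone, and *Hmgcs1* (0.22) and *Sqle* (0.32) under z scored zones. In single cells it was *Hmgcs1* at over 1000 UMIs (-0.23), without cells of 3 or more secretory or immune UMIs (-0.085), under z scored zones (-0.19) and without mouse 1 or 3 (range -0.14 to 0.35). With the mouse as a replicate block, 2112 genes instead of 1030 were called between villus tip and mid-villus clumps (1 of the 6 genes, *Npc1l1*, which DESeq2's Wald test called as well, 1), and 969 instead of 638 between enterocyte-like and tuft-like cells. Pairs alone gave 1490, 496 and 2371 genes for mid-villus against crypt, tip against mid-villus and tip against crypt, larger clumps alone 1218, 7 and 1246, and clumps thinned to 500 UMIs 1167, 277 and 1355, with fewer genes tested in each. Z scored zones gave 122 between tip and mid-villus, and no filter on low counts 595. In single cells no filter gave 4171 between mid-villus and crypt, and 1347, 2319 and 3263 against goblet-like, tuft-like and enteroendocrine-like cells. Leaving out cells with 3 or more secretory or immune UMIs gave 1342, and classes of at least 20 marker UMIs 848 against goblet-like cells. Leaving out 1 mouse gave 1863 to 3285 for mid-villus against crypt clumps (lowest without mouse 3) and 357 to 1182 for tip against mid-villus clumps (lowest without mouse 2, and 368 and 372 without mice 1 and 3). It gave 532 to 1342 for tip against mid-villus cells (lowest without mouse 4, and 751 and 594 without mice 2 and 3). Against goblet-like, tuft-like and enteroendocrine-like cells it gave 144 to 710, 144 to 835 and 216 to 1034, and 1 to 5, 0 to 5 and 0 to 4 of the 7 genes, lowest without mouse 2, when 600 genes were tested. Causes were not tested. Sums of few cells (5 in 1 class and mouse) limit the rare classes.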
